A study of Mus musculus with 2 samples.

Results

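The genes of oxidative phosphorylation were described here across the cell types of mouse gonadal fat in a pair of single-cell libraries. Members were all rows of the gene tables whose symbols began with mt-Nd, mt-Co, mt-Atp, mt-Cytb, Nduf, Sdha, Sdhb, Sdhc, Sdhd, Uqcr, Cox4i, Cox5, Cox6, Cox7, Cox8 or Atp5, except 1 row that carried -ps. This gave 110 of 32285 genes, of which 97 lay in the nuclear genome and 13 in the mitochondrial genome. The nuclear members comprised 36 subunits of complex I, 4 of complex II, 8 of complex III, 20 of complex IV, 17 of the ATP synthase and 12 assembly or other factors. The mitochondrial members comprised 7 subunits of complex I, 1 of complex III, 3 of complex IV and 2 of the ATP synthase, and they were the only mt- genes in the tables. Cyc1, the cytochrome c1 subunit of complex III, was not matched by the symbols. A UMI was found for 108 members in each library, whereas Cox8b and Cox8c were seen in the LFD library alone.

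The cells were those that remain of gonadal white fat (gWAT) once mature adipocytes are spun off, the stromovascular fraction, and came from male Cyp1a1Cre x R26LSL-eYFP mice, in which Cre recombinase driven by the Cyp1a1 promoter leaves a permanent yellow fluorescent label in cells that have used Cyp1a1, which the aryl hydrocarbon receptor induces. The diets, eaten for 12 weeks, held 10% fat in the low-fat (LFD) and 60% fat in the high-fat group (HFD), and all mice, controls included, had been injected with the receptor ligand FICZ (10 mg/kg) 5 days earlier. The sort took live cells positive for eYFP, so cells without this label, and mature adipocytes, were not part of the sample. There was 1 library per diet and nothing tied a cell to a mouse, so differences between diets, mice, sorts and libraries cannot be told apart, and no test between diets was possible.

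Oxidative phosphorylation makes ATP in mitochondria. Complexes I to IV of the inner membrane pass electrons from NADH and succinate to oxygen and pump protons outwards, except complex II, which pumps none, and the ATP synthase uses the returning protons. The mitochondrial genome encodes core subunits of complexes I, III, IV and V, while all other subunits, every subunit of complex II, and the factors that transcribe, translate and assemble the rest are encoded in the nucleus and imported.

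The mitochondrial members lie close together on chrM and partly overlap, which limits how reads can be assigned to single genes. The pair below is the longest overlap between members on the same strand, at chrM:7927-7969 on the plus strand of GRCm38, where the last 43 of the 204 bases of mt-Atp8 are also the first 43 of the 681 bases of mt-Atp6.
mt-Atp8 and mt-Atp6: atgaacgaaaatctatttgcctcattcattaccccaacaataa
The genes mt-Nd4l and mt-Nd4 share 7 bases, at chrM:10167-10173. The genes mt-Nd5 and mt-Nd6 lie on opposite strands and overlap by 14 bases. mt-Nd6 was the only one of the 13 on the light strand.

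For the nuclear members, promoter sequence was taken from RefSeq (GRCm38.p6, 250 bases before to 50 after each start) and searched on both strands for motifs of factors known to act on respiratory genes. A window was found for 79 of the 97 nuclear members, 84 windows in all. The NRF1 motif, spelled GCGCATGCG, was in 10 of the 84 windows (11.9%), against 1.75% of all 32851 windows. The YY1 motif AAGATGGCG was in 8 windows (9.52%), against 1.40% of all, the ERR motif TCAAGGTCA in 2 (2.38%), against 0.423%, and the ETS motif CCGGAAGTG in 2 (2.38%), against 2.03%. Matches are shown for members to which the results below return, each from the minus strand of the chromosome, with the match or its reverse complement in capitals. These matches describe the sequence and are no evidence of binding.
Sdhd, chr9:50603800-50603823, ERR: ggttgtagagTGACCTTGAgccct
Atp5g3, chr2:73911360-73911388, ERR: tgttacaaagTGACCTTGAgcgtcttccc
Ndufa8, chr2:36049329-36049357, NRF1: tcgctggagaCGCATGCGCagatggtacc
Atp5k, chr5:108434431-108434459, NRF1: tttcactgcgGCGCATGCGCctttctggc
Cox6a1, chr5:115349102-115349130, NRF1: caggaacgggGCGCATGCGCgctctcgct
Ndufc1, chr3:51408915-51408943, YY1: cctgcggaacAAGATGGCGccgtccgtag
Ndufs6, chr13:73328433-73328459, YY1: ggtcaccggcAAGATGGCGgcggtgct
The windows with an NRF1 match belonged to Atp5g2, Atp5k, Atp5l, Cox6a1, Ndufa11, Ndufa8, Ndufaf4, Ndufaf5, Uqcr11 and Uqcrc1, and those with a YY1 match to Atp5j, Atp5j2, Ndufa9, Ndufaf8, Ndufc1, Ndufs4, Ndufs6 and Ndufs7. The ERR matches were those of Sdhd and Atp5g3, the former 36 bases after the start and the latter 52 before it.

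After filtering, 9294 LFD cells with a median of 10213.5 UMIs and 7879 HFD cells with a median of 12709 UMIs remained, in 16 clusters. Cells were kept only with less than 12.5% of their UMIs from the 13 mitochondrial members, so the mitochondrial share of a cell was truncated by the filter itself, whereas the nuclear share was not. Clusters were named from marker genes, with the members left out of the genes used for clustering. Of the 16, the 11 with at least 100 cells in each library were compared between diets, namely mesothelial-like, B cell-like, proliferating Wt1+, endothelial-like, macrophage-like, plasma cell-like, proliferating plasma cell-like, adipose progenitor cell (APC)-like, T cell-like and type 2 innate lymphoid cell (ILC2)-like cells, and the largest cluster, of 3022 LFD and 1298 HFD cells. Of their own markers, the T cell-like cells carried 7 of 8, the B cell-like 8 of 9 and the mesothelial-like and proliferating Wt1+ cells 11 of 12, and the other types named above all of theirs, while ILC2-like cells also carried 7, T cell-like cells 6 and endothelial-like cells 4 of the 8 proliferation markers, and both plasma types 5 of 9 B cell markers. T cell-like cells carried 6 of 8 ILC2 and 3 of 6 NK cell markers too, and mesothelial-like and proliferating Wt1+ cells 9 of 13 APC markers. The largest cluster carried 9 of 12 mesothelial and 9 of 13 APC markers and is called Ereg-high stromal after its leading gene. The median UMI count per cell was higher in the HFD library in 8 of the 11 types, and the share of cells over the mitochondrial limit in 9. Cells over that limit were not clustered and were assigned to the nearest cluster by markers. Among clustered cells this call gave the cluster's own name in 86.2%. The pair of libraries had 21 kept barcodes in common.

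Transcripts of the 13 mitochondrial genes took a larger and more variable share of a cell's RNA than those of the 97 nuclear genes. In LFD cells, the mitochondrial members made up between 3.30% of UMIs in plasma cell-like cells and 7.75% in B cell-like cells, a 2.35-fold range over the 11 types, and in HFD cells between 3.18% and 8.35% in the same types, a 2.63-fold range. The nuclear members ranged from 1.75% in plasma cell-like to 2.41% in T cell-like LFD cells, a 1.38-fold range, and from 1.39% in plasma cell-like to 2.15% in proliferating Wt1+ HFD cells, a 1.54-fold range. B cell-like cells therefore stood highest on one scale and only in the lower part of the other, at 1.91% and 1.65% nuclear.

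The order of the types by mitochondrial share was B cell-like, then ILC2-like (6.54% LFD and 6.81% HFD), and below these 7 types between 5.27% and 6.08%. The values within that group were close. Macrophage-like cells gave 6.08% and 5.81%, Ereg-high stromal cells 5.95% and 5.69%, mesothelial-like cells 5.86% and 5.78%, and T cell-like cells 5.79% and 6.01%. Proliferating plasma cell-like cells gave 3.65% and 3.52% of all UMIs, a total that in both plasma types holds much immunoglobulin. In the single cells, the interquartile range of B cell-like cells lay between 6.72% and 9.22% in LFD and between 7.41% and 9.73% in HFD, whereas that of plasma cell-like cells lay between 2.66% and 3.86% and between 2.57% and 3.72%. These ranges did not overlap. Among the compared types the kept B cell-like cells lay nearest to the limit, 13.6% of them in LFD and 21.3% in HFD being at 10% or above. With removed cells assigned by markers, the filter took most from the Ereg-high stromal cells, 16.1% and 19.4%, against 4.55% and 8.01% of B cell-like cells.

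The mitochondrial and nuclear shares did not rank the types alike. Across the 11 types Pearson's r of the shares was 0.18 in LFD and 0.24 in HFD, with Spearman's rho at -0.05 and 0.29, as a description of points that share a library and a common denominator. B cell-like cells had the most mitochondrial UMIs for each nuclear member UMI, 4.05 in LFD and 5.06 in HFD, and proliferating plasma cell-like cells the fewest, 1.76 and 1.97. Ereg-high stromal cells lay between them with 2.96 and 2.88. The number was higher in the HFD than in the LFD library in 10 of the 11 types, Ereg-high stromal cells being the exception.

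Plasma cells fill much of their RNA with immunoglobulin transcripts, which took 34.5% of UMIs in LFD and 42.1% in HFD plasma cell-like cells and 23.9% and 28.9% in the proliferating ones. When immunoglobulin and mitochondrial UMIs were both left out of the denominator, the nuclear members reached 2.86% of LFD and 2.65% of HFD UMIs in proliferating plasma cell-like cells, the highest of the 11 types, followed by 2.82% and 2.55% in plasma cell-like cells. APC-like cells were then lowest, with 1.88% and 1.56%. The mitochondrial members took 5.04% and 5.49% of the UMIs outside immunoglobulin in plasma cell-like cells, and 4.79% and 4.95% in the proliferating ones, which were then lowest. APC-like HFD cells had 5.29% on that scale and endothelial-like HFD cells 5.46%, so plasma cell-like cells were lowest by either share only with immunoglobulin in the total. In LFD cells the mitochondrial share of both plasma types still lay below that of the other compared types, the next being proliferating Wt1+ cells at 5.45%.

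**Figure D1:**
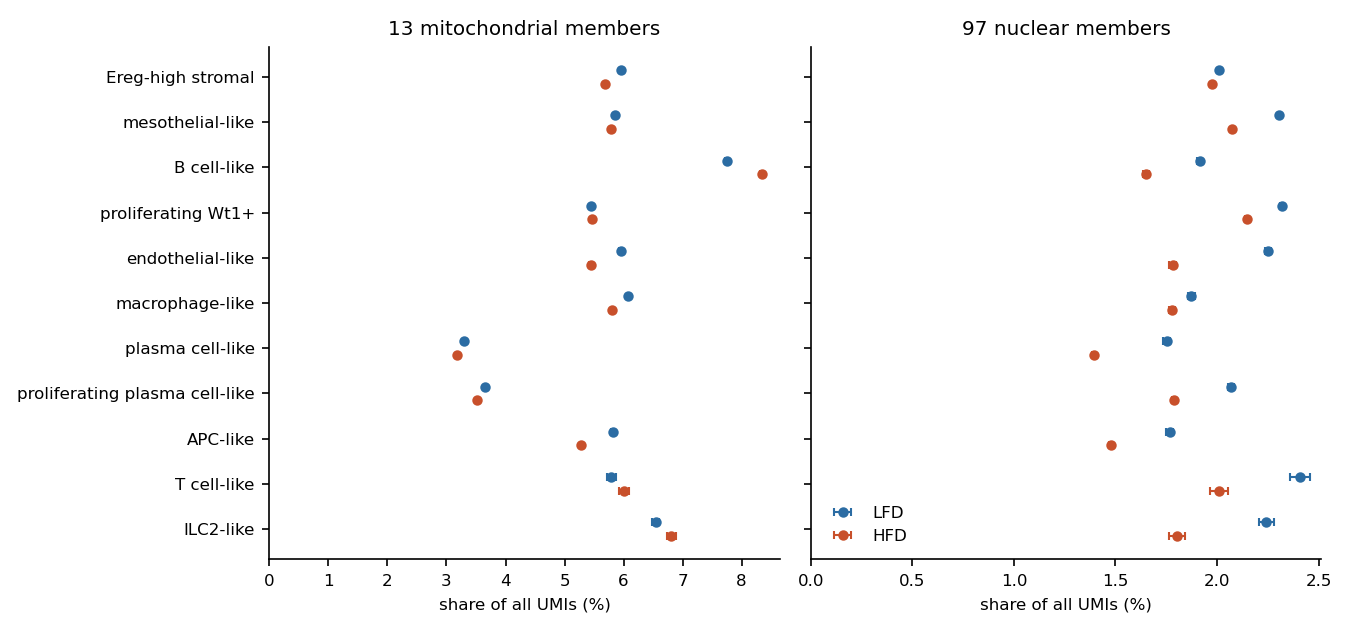
Share of all UMIs (percent) from the 13 mitochondrial and the 97 nuclear members in each compared cell type, with 1 point per library and exact 95% intervals for counting error. B cell-like cells lie highest by mitochondrial share, at 7.75% in LFD and 8.35% in HFD, and plasma cell-like cells lowest by both shares of a total that includes immunoglobulin.

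The next comparison asked how the members differed with diet within each cell type, as the ratio of HFD to LFD counts per 1000000 UMIs (CPM). The summed nuclear members were lower in the HFD library in 11 of 11 types, and the summed mitochondrial members were lower in 7, higher in 3 and within counting error in 1. The mitochondrial count depended on the processing, with 5 types higher when no mitochondrial limit was set and 6 outside immunoglobulin. The sum turned to 1.01 in mesothelial-like cells with no limit, and under a limit of 5%, which cuts by the measure itself, it was 1.01 in Ereg-high stromal and 1.02 in macrophage-like cells. In endothelial-like cells nuclear members took 2.25% of LFD and 1.78% of HFD UMIs, a ratio of 0.791 (95% interval 0.782 to 0.80), while mitochondrial members had a ratio of 0.915 (0.909 to 0.922). In plasma cell-like cells the nuclear ratio was 0.795 (0.786 to 0.805) against a mitochondrial ratio of 0.963 (0.955 to 0.971). Outside immunoglobulin and mitochondrial UMIs, these became 0.904 and 1.09, so that the mitochondrial direction turned. Ereg-high stromal cells showed the smallest nuclear difference, 2.01% and 1.98% with a ratio of 0.984 (0.980 to 0.988), and were the only type in which the mitochondrial ratio, 0.956 (0.954 to 0.958), was the lower of the pair. All intervals are exact for the ratio of a pair of Poisson counts and cover counting error only.

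In 3 types the sums of the mitochondrial and nuclear members went in opposite directions, with both intervals off 1. B cell-like cells had a nuclear ratio of 0.863 (0.853 to 0.872) and a mitochondrial ratio of 1.08 (1.07 to 1.08), T cell-like cells 0.833 (0.809 to 0.858) and 1.04 (1.02 to 1.06), and ILC2-like cells 0.803 (0.781 to 0.826) and 1.04 (1.03 to 1.06). In mesothelial-like cells the nuclear ratio was 0.899 (0.896 to 0.902) and the mitochondrial ratio 0.986 (0.984 to 0.989). In proliferating Wt1+ cells they were 0.926 (0.921 to 0.931) and 1.00 (0.999 to 1.01). APC-like cells had ratios of 0.837 (0.827 to 0.847) and 0.906 (0.90 to 0.912), macrophage-like cells 0.949 (0.938 to 0.960) and 0.955 (0.949 to 0.962), and proliferating plasma cell-like cells 0.865 (0.857 to 0.872) and 0.965 (0.959 to 0.972), which became 0.927 and 1.04 outside immunoglobulin and mitochondrial UMIs. The share of all genes' counts taken by the members is what these ratios describe. When each type's ratios were instead set against the median gene of that type, nuclear sums stayed below 1 in all 11 types, from 0.727 to 0.925.

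**Figure D2:**
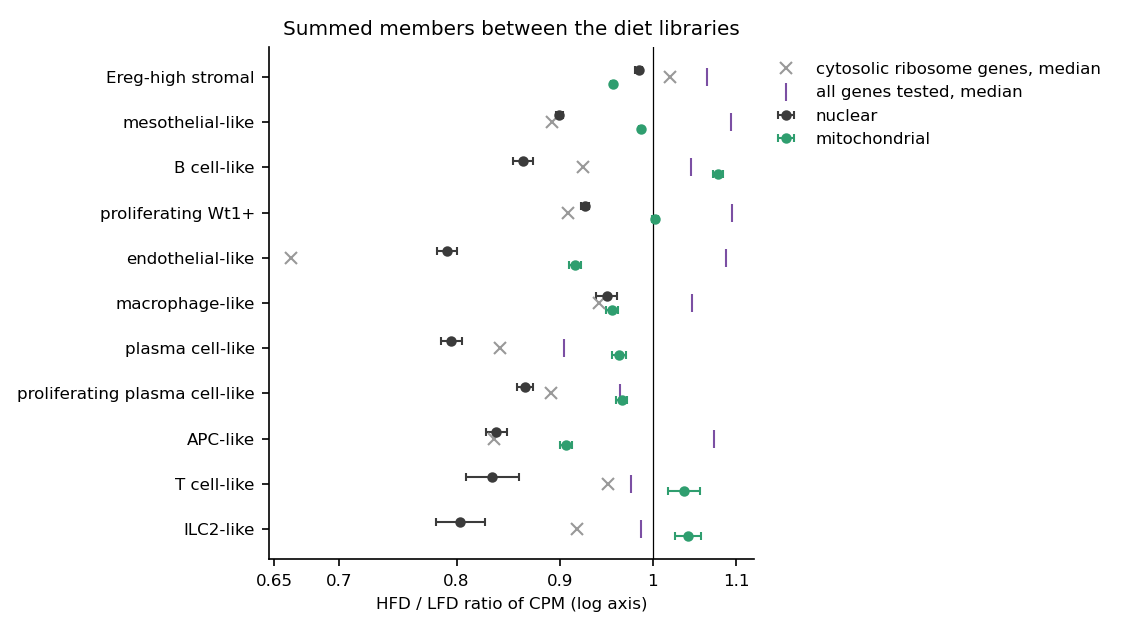
HFD to LFD ratio of summed CPM (log axis) for the mitochondrial and the nuclear members in each compared type, with exact 95% intervals for counting error, beside the median ratio of the cytosolic ribosome genes (crosses) and of all genes (bars). The nuclear ratios lie between 0.791 and 0.984, all below 1, and the mitochondrial ratios between 0.906 and 1.08.

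Counting each member once in each type where it had at least 100 UMIs over both libraries gave 913 pairs of a nuclear member and a type. Of these, 5 (0.548%) were at least 1.5-fold higher in HFD, against 8.14% of all 74494 pairs of a gene and a type, and 49 (5.37%) were at least 1.5-fold lower, against 4.80% of all pairs. The share of members lower by this fold was therefore near that of all genes, and the share higher was smaller. Of the 913 ratios 150 were above 1, against 59.0% of all pairs. None of the 139 mitochondrial pairs passed the fold in either direction. The members lower by 1.5-fold numbered 6 of 84 in B cell-like cells (4.69% of all genes there), 6 of 85 in plasma cell-like cells (11.9%), 11 of 61 in T cell-like cells (6.76%) and 14 of 67 in ILC2-like cells (11.3%), and at most 4 in any other type. The T cell-like and ILC2-like counts rest on the shallowest sums, of 124 and 127 and of 112 and 101 cells.

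The median nuclear member ran from a ratio of 0.761 in ILC2-like cells to 0.987 in Ereg-high stromal cells, and was below the median of all genes in 11 of 11 types, where that median lay between 0.904 in plasma cell-like and 1.09 in proliferating Wt1+ cells. Of the 61 nuclear members with enough UMIs in every type, 21 (34.4%) had a ratio below 1 in all 11, against 10.9% of the 970 genes tested in every type. The interval lay below 1 in all 11 types for 5 of the 61 (8.20%), against 3.20% of the 970, namely Cox5b and Cox8a of complex IV, Uqcr11 of complex III, Ndufa13 of complex I and Atp5k, the e subunit of the ATP synthase. Among the 61, only Uqcrfs1, the Rieske iron-sulfur protein of complex III, and Atp5g3, one of the genes for the c subunit of the ATP synthase ring, had a ratio above 1 in more than 5 types. Among the members compared in fewer types, Sdhd was above 1 in 9 of 9, Ndufs1 in 7 of 9, Sdha in 7 of 10 and Sdhc in 6 of 9.

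Complex I takes electrons from NADH. Its 36 nuclear subunits together gave ratios from 0.753 in ILC2-like to 0.962 in Ereg-high stromal cells, with the interval below 1 in all 11 types. The core subunit Ndufs1, which carries iron-sulfur clusters, was an exception, with a median ratio over types of 1.11 (0.906 in APC-like to 1.21 in Ereg-high stromal cells, 9 types). Its level was low, 22.3 to 49.0 CPM in LFD. The NADH-binding Ndufv1 had a median ratio of 0.919 (0.694 to 1.19). The accessory subunit Ndufc1 had the lowest ratio of all nuclear members in T cell-like cells, 176 and 85.7 CPM with a ratio of 0.487 (0.313 to 0.744), and in ILC2-like cells, 132 and 70.5 CPM with a ratio of 0.535 (0.340 to 0.820), from 34 and 30 HFD UMIs. In macrophage-like cells its ratio was 1.00. The highest ratio in T cell-like cells was that of Ndufa1, another accessory subunit, with 130 and 169 CPM and a ratio of 1.30 whose interval (0.888 to 1.91) held 1. Ndufs6, whose promoter like that of Ndufc1 holds a YY1 match, had a median ratio of 0.811, and Ndufa8, with an NRF1 match, 0.860.

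The assembly factor Ndufaf2 stood lowest in endothelial-like cells, with 44.7 and 20.8 CPM in the LFD and HFD cells and a ratio of 0.466 (0.336 to 0.638), and in plasma cell-like cells, with 15.97 and 9.22 CPM and a ratio of 0.577 (0.382 to 0.890), which turned to 1.69 after cells were thinned to 2000 UMIs. In proliferating Wt1+ cells it was level, at 44.9 and 44.4 CPM. Over all 12 assembly and other factors the summed ratio ran from 0.694 in T cell-like to 1.05 in Ereg-high stromal cells.

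Complex II, the succinate dehydrogenase that also serves the citric acid cycle, was the only complex whose nuclear sum was higher in HFD in more than 1 type. Its interval lay above 1 in 4 types, with a ratio of up to 1.19 in proliferating Wt1+ cells, and below 1 only in plasma cell-like cells, at 0.802. Of its subunits only Sdhd, a membrane anchor of the complex, passed 1.5-fold upwards. Sdhd had 49.1 CPM in LFD and 86.8 in HFD Ereg-high stromal cells, a ratio of 1.77 (1.66 to 1.89). In proliferating Wt1+ cells it had 71.6 and 131 CPM, a ratio of 1.83 (1.69 to 1.98). In mesothelial-like cells it had 66.4 and 105 CPM, a ratio of 1.58 (1.48 to 1.67), and in B cell-like cells 51.8 and 79.2 CPM, a ratio of 1.53 (1.26 to 1.85). These were 4 of the 5 pairs past that fold, the other being Cox4i2 in proliferating plasma cell-like cells.

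Smaller differences of the same sign were seen for Sdhd elsewhere. Macrophage-like cells had 69.3 and 89.9 CPM, with a ratio of 1.30 (1.07 to 1.57), endothelial-like cells 53.3 and 67.2 CPM, with a ratio of 1.26 (1.02 to 1.55), and proliferating plasma cell-like cells 53.2 and 65.7 CPM. The endothelial-like ratio turned to 0.982 after thinning to 2000 UMIs and the macrophage-like ratio to 0.891 among cells under 5% mitochondrial UMIs. APC-like cells gave 49.1 and 52.8 CPM and plasma cell-like cells 29.5 and 31.0 CPM, differences within counting error. The T cell-like (28 and 44 UMIs) and ILC2-like (27 and 18 UMIs) sums were under 100 UMIs. Among cells, 41.1% of LFD and 73.0% of HFD Ereg-high stromal cells had an Sdhd UMI, at median depths of 10796.5 and 16490.5 UMIs, and 69.3% and 90.4% of proliferating Wt1+ cells. The share of cells therefore moved together with depth, which the CPM divides out. None of the other subunits passed 1.5-fold upwards in any type. Sdha, the flavoprotein that holds the active site, had a median ratio of 1.03 over 10 types, up to 1.12 in proliferating Wt1+ cells, with 2 intervals above 1 and none below. Sdhc, the other membrane anchor, had 1.04 over 9, with 1 interval above and 1 below, and Sdhb, the iron-sulfur protein, 0.856 over 11, with 5 intervals below 1 and none above.

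Complex III passes electrons on to cytochrome c. Its nuclear sum was below 1 in 11 of 11 types, from 0.785 in plasma cell-like to 0.961 in Ereg-high stromal cells. Medians over types were 0.709 for Uqcr10, 0.772 for Uqcr11, 0.788 for Uqcrq and 0.795 for Uqcrb, all small subunits, but 0.936 for Uqcrh (0.792 to 1.19), which is small too. The larger core protein Uqcrc1 had a median of 0.827 (0.807 to 1.24, highest in macrophage-like cells), Uqcrc2 0.936 and Uqcrfs1 1.02 (0.782 to 1.22).

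Complex IV hands the electrons to oxygen. Its nuclear sum was below 1 in all 11 types, from 0.776 in endothelial-like to 0.973 in Ereg-high stromal cells. Among its subunits compared in all 11 types, the lowest medians were those of Cox8a (0.679 to 0.893), Cox5b (0.615 to 0.956) and Cox5a (0.632 to 1.06). Cox4i1, the ubiquitous form of the regulatory subunit IV and one of the most abundant members at 717 to 1035 CPM in LFD, ranged from 0.806 in endothelial-like to 1.00 in B cell-like cells. Cox7a2l, a relative of subunit VIIa that takes part in supercomplexes, stayed nearer 1, with a median of 0.991 and its highest ratio in ILC2-like cells, where 355 and 439 CPM gave 1.24 (1.02 to 1.51). The ATP synthase sum was below 1 in 10 types, lowest in endothelial-like cells at 0.778, and 1.01 in Ereg-high stromal cells.

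The 17 compared nuclear subunits of the ATP synthase spread from a median ratio of 0.723 to 1.01. Atp5a1 and Atp5b, the alpha and beta subunits of the catalytic head, had median ratios of 0.969 (0.741 to 1.13) and 0.865 (0.694 to 1.09). The small membrane subunits Atp5k and Atp5md had 0.725 (0.621 to 0.792) and 0.723 (0.646 to 0.852), while another, Atp5mpl, had 0.876 (0.733 to 0.982). Atp5k gave the lowest ratio of all members in APC-like cells, with 175 and 112 CPM, a ratio of 0.638 (0.562 to 0.725), and Atp5md that in macrophage-like cells, with 203 and 147 CPM, a ratio of 0.723 (0.638 to 0.819). In APC-like cells the highest was Sdhaf2, an assembly factor of complex II, with 21.4 and 26.0 CPM and a ratio of 1.21 whose interval (0.873 to 1.72) held 1.

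The 3 genes for the same mature c subunit of the ATP synthase ring, Atp5g1, Atp5g2 and Atp5g3, shifted against each other. Atp5g1 gave 49.4% of the UMIs of the 3 genes in LFD plasma cell-like cells, the highest share of the compared types, and 26.7% in T cell-like cells, the lowest. In HFD cells its share ran from 16.9% in ILC2-like to 38.1% in plasma cell-like cells and was below that in LFD in 11 of 11 types. Atp5g1 was also the member with the lowest ratio in B cell-like cells, with 363 and 223 CPM and a ratio of 0.613 (0.559 to 0.672). Atp5g2 held 35.3% to 52.1% of the UMIs in LFD and 43.8% to 60.1% in HFD, and Atp5g3, with the ERR match, 15.3% to 25.5% and 16.9% to 31.3%.

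The length of the transcripts was examined only after the low ratios of small subunits had been seen. The 61 nuclear members with enough UMIs in every type had median transcript lengths of 321.5 to 2675.5 bases, with a median of 625. Across these members the median ratio correlated weakly with log2 length (Pearson's r 0.31, Spearman's rho 0.32). Protein-coding genes that were no members showed the same order. Their median ratio, taken over types, was 0.940 under 600 bases, 0.944 from 600 to 1000, 1.00 from 1000 to 2000, 1.12 from 2000 to 4000 and 1.17 from 4000 upwards, and the longest band was above the shortest in 11 of 11 types. Members stood below other genes of their own length, with 0.802 under 600 bases (lower in 11 of 11 types), 0.850 from 600 to 1000 (11 of 11) and 0.898 from 1000 to 2000 (10 of 11). From 2000 to 4000 bases, with 2 to 6 members per type, they were at 0.853. Within single types, Spearman's rho of length and ratio ran from 0.03 in T cell-like to 0.52 in Ereg-high stromal cells for members, and from 0.13 in Ereg-high stromal to 0.38 in endothelial-like cells for other genes. The part of length in the result was not tested.

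**Figure D3:**
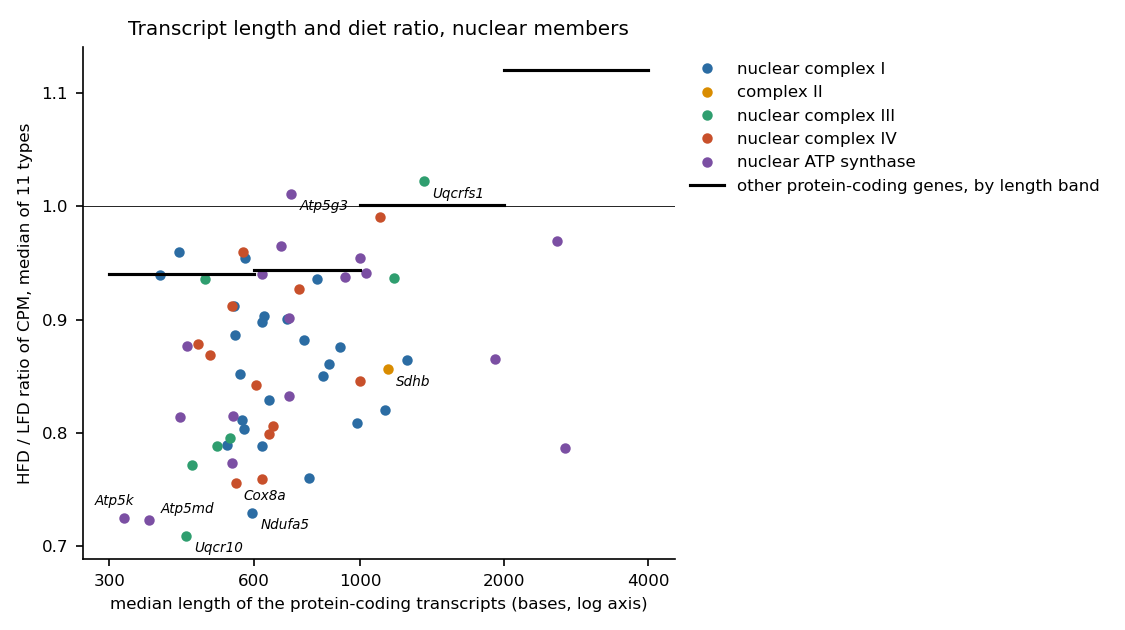
Median over the 11 types of the HFD to LFD ratio of CPM against median transcript length in bases (log axis), with 1 point per nuclear member for the 61 with enough UMIs in every type, coloured by complex, and black bars for the medians of other protein-coding genes up to 4000 bases. Most members of 600 to 1000 bases lie under the bar at 0.944.

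Related gene lists went with the members to different degrees, and their counts are to be read against the 4.80% of all pairs that were lower and the 8.14% that were higher by 1.5-fold. The 83 genes of the cytosolic ribosome had list medians from 0.663 in endothelial-like to 1.02 in Ereg-high stromal cells, with 49 of 874 pairs lower by 1.5-fold and 0 higher. The 78 genes of the mitochondrial ribosome, which makes the 13 mitochondrial proteins, had medians from 0.716 in ILC2-like to 1.04 in Ereg-high stromal cells, with 47 of 693 pairs lower and 5 higher. For 30 further assembly factors of the complexes the medians were 0.732 to 1.03, and 8 of 199 pairs were lower and 2 higher. Cytochrome c and c1 (3 genes) gave 0.678 to 1.04, with 3 of 21 pairs lower. A list median rests on the list genes with enough UMIs in the type. These numbered 77 to 80, 8 to 78, 1 to 29 and 1 to 2 for the 4 lists in that order. All 4 lists had medians below that of all genes in 11 of 11 types.

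Lists of control and fuel supply lay on both sides of 1. For 10 genes of mitochondrial transcription the list medians were 0.945 in plasma cell-like to 1.24 in APC-like cells, with 5 of 49 pairs higher and 0 lower, and for 9 nuclear regulators of the respiratory chain 0.943 in plasma cell-like to 1.31 in ILC2-like cells, with no pair past the fold among 58. The 13 genes of the citric acid cycle had medians of 0.826 in plasma cell-like to 1.19 in macrophage-like cells, with 2 of 121 pairs higher and 3 lower, and 10 carriers and uncoupling proteins medians of 0.730 to 1.18, with 3 of 86 pairs higher and 4 lower. The genes with enough UMIs in a type numbered 0 to 9, 1 to 8, 2 to 13 and 7 to 8 for these lists in that order. The transcription list had a median in 9 types only, and some medians may rest on few genes.

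The 13 mitochondrial genes differed from each other in UMI counts and in their ratios between the libraries. mt-Co3 and mt-Co1 of complex IV, mt-Atp6 and mt-Co2 held most of the UMIs, mt-Co3 with 18.9% to 22.5% of the mitochondrial UMIs of a type in LFD, mt-Atp6 17.4% to 22.7%, mt-Co1 14.6% to 18.8% and mt-Co2 13.9% to 15.3%. mt-Cytb, the only mitochondrial subunit of complex III, held 8.25% to 10.9%. mt-Atp8, which shares its end with mt-Atp6 in the sequence shown above, held only 0.0323% to 0.0657% and mt-Nd6, from the other strand, 0.0287% to 0.0569%. These are shares of 3′ tags and depend on how each transcript is primed and assigned, so they do not rank the transcripts by abundance. By complex, IV gave 47.8% of mitochondrial UMIs in endothelial-like and 55.2% in macrophage-like LFD cells, and the ATP synthase 22.8% and 17.5% in the same types.

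Between diets, mt-Atp6 and mt-Nd3 were the mitochondrial genes that were lower most widely. mt-Atp6, the proton channel subunit of the ATP synthase, had ratios from 0.827 in APC-like to 1.01 in B cell-like cells, with the interval below 1 in 9 types and above 1 in none. mt-Nd3 of complex I ranged from 0.778 in endothelial-like to 1.00 in T cell-like cells, also with 9 intervals below 1. mt-Co1, the catalytic subunit of complex IV, went both ways, from 0.915 in macrophage-like to 1.27 in ILC2-like cells, with 7 intervals above 1 and 4 below. Its levels were 11835 CPM in LFD and 14477 in HFD B cell-like cells, the type where they were highest.

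The other mitochondrial subunits of complex I varied. mt-Nd2 was above 1 beyond its interval in 6 types and below in 1 (0.966 to 1.13), mt-Nd4 in 5 and 1 (0.976 to 1.13), and mt-Nd4l in 5 and 0 (0.867 to 1.29). mt-Nd5 ran from 0.915 to 1.45, mt-Nd6 from 0.749 to 1.38, and mt-Nd1 from 0.875 to 1.09 with 2 intervals above 1 and 5 below. mt-Co2 (0.896 to 1.1) and mt-Co3 (0.894 to 1.09) had 6 intervals below 1 each, and 1 and 3 above. For mt-Cytb the ratios were 0.886 to 1.05, with 3 intervals above 1 and 6 below. mt-Atp8, with few UMIs, had no interval off 1 in any type (0.784 to 1.25).

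**Figure D4:**
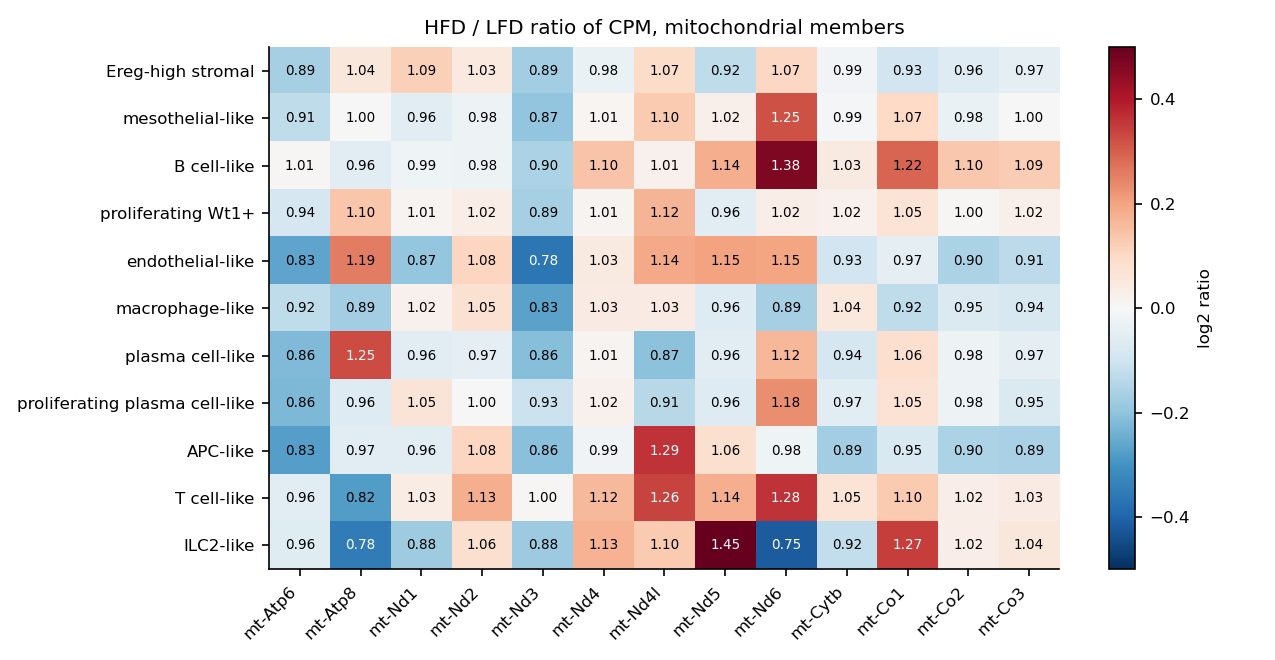
HFD to LFD ratio of CPM of each of the 13 mitochondrial genes (columns) in each of the 11 compared cell types (rows), printed in each field and coloured by its log2 value. The columns of mt-Atp6 and mt-Nd3 are mostly below 1, down to 0.827 and 0.778, while that of mt-Co1 spreads from 0.915 to 1.27.

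Some nuclear members were particular forms of a subunit that marked single cell types by level. Cox4i2, the form of subunit IV known from lung and from oxygen-sensing vascular cells, had 213 CPM in the 11 LFD and 234 CPM in the 70 HFD mural-like cells (16 and 104 UMIs), where 54.5% and 74.3% of cells had a UMI and 20.5% and 22.7% of all Cox4i UMIs were Cox4i2. In Ereg-high stromal cells 1 of 3022 LFD and 0 of 1298 HFD cells had one, which allows up to 0.231% of HFD cells with a UMI and sets no limit on cells expressing the gene. The mural-like cluster had too few LFD cells to be compared, and it carried all 10 endothelial markers beside all 10 mural markers. A second, lower level of Cox4i2 was in plasma cell-like cells, where 6.06% of LFD and 9.90% of HFD cells had a UMI, and in proliferating plasma cell-like cells, with 8.63% and 16.7%. In the latter the level was 6.40 and 12.2 CPM, a ratio of 1.91 (1.19 to 3.23), and in the former 6.29 and 9.43 CPM, a ratio of 1.5 (0.833 to 2.92), each the highest ratio of its type. After cells were thinned to 2000 UMIs the ratio of 1.91 turned to 0.752. The 10 mural markers summed to 8.23 and 4.56 CPM in plasma cell-like and to 3.84 and 3.84 CPM in proliferating plasma cell-like cells, with 6 of the 10 at 0 in LFD and 4 at 0 in HFD cells of both plasma types. In mural-like cells the same sum was 5148 and 3734 CPM. Rgs5 had 0 UMIs in plasma cell-like cells and 0 and 2 in the proliferating ones. The part of mural RNA in these values was not tested.

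Ndufa4l2, a relative of the complex IV subunit Ndufa4 that is known as a gene of pericytes and of hypoxia, was likewise highest in mural-like cells, at 347 and 473 CPM, where it gave 66.7% and 72.9% of the UMIs of both genes. Outside these cells it showed the largest diet difference of any member. In Ereg-high stromal cells 230 of 3022 LFD cells (7.61%) and 15 of 1298 HFD cells (1.16%) had a UMI, with up to 20 UMIs in 1 LFD cell, and the level was 15.5 against 1.16 CPM, a ratio of 0.0746 (0.0478 to 0.111). In proliferating Wt1+ cells it was 7.48 against 0.407 CPM (115 and 5 UMIs), a ratio of 0.0544 (0.0173 to 0.131), and in mesothelial-like cells 3.57 against 0.804 CPM, a ratio of 0.226 (0.135 to 0.363). In B cell-like cells, which should lack it, 0.318% of LFD cells and none of 724 HFD cells had a UMI, which allows up to 0.414% of cells with one. The 10 mural markers summed to 470 CPM in LFD and 551 in HFD Ereg-high stromal cells, with 4 of 10 higher in HFD, to 499 and 555 CPM in proliferating Wt1+ cells, with 4 higher, and to 531 and 484 CPM in mesothelial-like cells, with 7 higher. Higd1b was at 0 in the LFD cells of all 3 types. Over both libraries Rgs5 had 0.160 CPM in Ereg-high stromal, 0.152 in mesothelial-like and 0.253 in proliferating Wt1+ cells, against 1770 in mural-like cells. The part of mural RNA in these ratios was not tested.

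APC-like cells, the only further compared type with at least 100 UMIs of Ndufa4l2, had 15.2 and 11.1 CPM, a ratio of 0.730 whose interval held 1. In endothelial-like cells, with 17 and 49 UMIs and so under the minimum used for comparisons, LFD cells had 4.47 and HFD cells 19.2 CPM, and the ratio was 4.31 (2.44 to 7.98). There the 10 mural markers were all higher in HFD, with a sum of 81.2 and 280 CPM and a ratio of 3.45, and Rgs5 alone went from 38.4 to 162 CPM. Cspg4 was at 0 in the LFD cells of that type. The part of mural RNA or cells in the endothelial-like value was not tested.

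Cox6a2, the form of subunit VIa known from heart and skeletal muscle, marked plasma cell-like cells. Its level there was 44.5 CPM in LFD and 30.2 in HFD, with a UMI in 17.2% and 10.2% of cells and up to 27 UMIs in 1 cell, and it gave 13.6% and 11.8% of Cox6a UMIs. Proliferating plasma cell-like cells had 14.7 and 6.34 CPM, a ratio of 0.431 (0.293 to 0.638), and the ratio in plasma cell-like cells was 0.678. In B cell-like cells 0.106% and 0.138% of cells had a UMI, at median depths of 3716 and 4028 UMIs against 10319 and 11724.5 in plasma cell-like cells. No UMI was found in endothelial-like, proliferating Wt1+, T cell-like or ILC2-like cells of either library, which allows up to 0.339% of the 885 proliferating Wt1+ LFD cells to hold one. Cox6a1, the ubiquitous form, had ratios of 0.801 in plasma cell-like to 1.08 in Ereg-high stromal cells.

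Further forms known from muscle, brown fat or testis were at low levels. Cox7a1 had at most a few CPM, as in mesothelial-like cells with 3.17 and 3.40 CPM, and Cox6b2 had 10.8 and 7.83 CPM in Ereg-high stromal cells (373 and 169 UMIs), a ratio of 0.727 (0.603 to 0.875). Proliferating B cell-like LFD cells held 9 of the 20 Cox7b2 and 14 of the 25 Cox8c UMIs of the LFD library, with 0 in the HFD cells of that type, and Cox8b had 2 UMIs in the compared types. The ubiquitous Cox6b1, Cox6c, Cox7a2, Cox7b and Cox8a were each present in every compared type, with median ratios between 0.755 and 0.868.

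**Figure D5:**
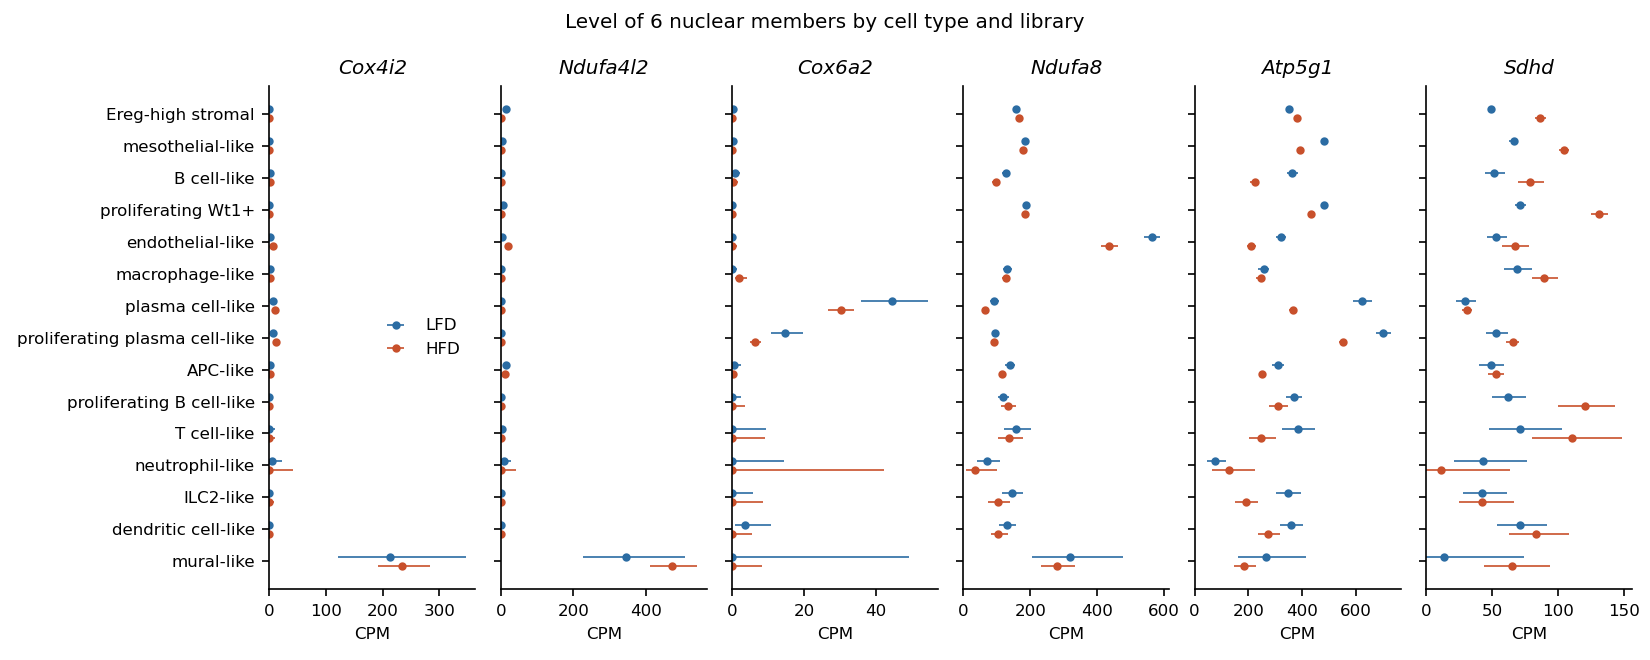
Level (CPM) of Cox4i2, Ndufa4l2, Cox6a2, Ndufa8, Atp5g1 and Sdhd in the 15 named clusters, with 1 point per library and exact 95% Poisson intervals. Cox4i2 and Ndufa4l2 stand out in mural-like, Cox6a2 in plasma cell-like and Ndufa8 in endothelial-like cells. The HFD points of Sdhd lie to the right of the LFD points in the Ereg-high stromal, mesothelial-like, proliferating Wt1+ and B cell-like types, among others.

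Further members with the strongest preference for 1 type were ubiquitous subunits raised by a few fold. Ndufa8, an accessory subunit of complex I with an NRF1 match, had 563 CPM in LFD and 436 in HFD endothelial-like cells, against 139 and 127 CPM in the median type, and 320 and 279 CPM in mural-like cells. A UMI was present in 74.1% and 63.9% of endothelial-like cells at median depths of only 3970 and 2943.5 UMIs. Plasma cell-like cells were highest for Uqcrq, with 680 and 496 CPM against a median type of 252 and 224, and for Ndufa1, with 218 and 227 CPM against 104 and 101. Proliferating plasma cell-like cells were highest for Atp5g1, with 701 and 551 CPM against 359 and 252, and for Ndufs8, a core subunit of complex I, with 190 and 155 CPM against 94.4 and 85.7. Sdhaf2 was highest in proliferating B cell-like cells (51.7 and 53.7 CPM) and Ndufa6 in dendritic cell-like cells (299 and 266 CPM).

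The make-up of the nuclear set by complex varied less between types than these single genes. The ATP synthase gave 30.1% to 33.3% of nuclear member UMIs in LFD and 29.6% to 34.1% in HFD, complex I 26.4% to 30.4% and 25.7% to 30.4%, and complex IV 24.1% to 28.6% and 23.8% to 28.7%. Complex III gave 9.03% to 11.6% and 9.56% to 11.4%, highest in plasma cell-like cells of both libraries, and complex II 1.46% to 2.11% and 1.48% to 2.42%, highest in macrophage-like cells of both.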

How the data were processed

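The deposited matrices held raw counts of UMIs per gene and cell barcode, whole numbers without normalization, which the authors made with Cell Ranger 4.0.0 (mm10, bcl2fastq 2.17.1.14, STAR and Seurat 4.1.0 are also named in the submitters' processing notes, without their roles). Barcodes with 500 to 40000 UMIs, at least 100 genes and less than 12.5% mitochondrial UMIs were kept. The LFD library had 11281 barcodes and 114311020 UMIs, of which 1039 barcodes were over the mitochondrial limit and 26 outside the depth limits. The HFD library had 9631 barcodes and 119498750 UMIs, with 921 and 173. Doublets were scored with Scrublet (scanpy) and the highest-scoring 922 LFD and 658 HFD cells removed, at 0.8% per 1000 barcodes.

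Libraries were integrated in Seurat 5.3.0 (R 4.3.3) on 1997 variable genes without the members and clustered on 30 components at resolution 0.3. Cluster names rest on marker lists and were settled after the clusters were seen. The members, lists, rule for named genes and tests were chosen with earlier results of these data known, and the analysis of length and of cells with a UMI was added after seeing the values.

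Counts were summed per type and library and divided by the sum of all UMIs (CPM). Genes with at least 100 UMIs over both libraries in a type were compared, as the HFD to LFD ratio with an exact conditional binomial 95% interval (scipy 1.17.1). Shares of cells have exact Clopper-Pearson intervals. With 1 library per diet no p-value can be given. The limit behind a count of 0 is 3 counts. The computation was tested on simulated data. Genes named in the text were the 13 mitochondrial members, the nuclear members with the highest and lowest ratio in each type, the 10 with the largest excess of a type over the median type, alternative forms of subunits, and core subunits. The values of 1 gene that this rule named are not reported here. Other members were named to describe a complex after their values were seen. Reads that a member shares with a processed pseudogene or with an overlapping gene could not be separated from the counts. Protein sequences, and the promoter windows of 18 nuclear members, were not used here.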

Additional observations from a re-analysis of the deposited data

Results flagged for a closer look

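The summed mitochondrial members differed in direction between cell types under the same contrast of diets. They were lower in the HFD library in APC-like (ratio 0.906), endothelial-like (0.915), macrophage-like (0.955), Ereg-high stromal (0.956), plasma cell-like (0.963), proliferating plasma cell-like (0.965) and mesothelial-like cells (0.986), and higher in T cell-like (1.04), ILC2-like (1.04) and B cell-like cells (1.08). Outside immunoglobulin and mitochondrial UMIs the plasma cell-like and proliferating plasma cell-like ratios turned to 1.09 and 1.04. The mesothelial-like ratio turned to 1.01 with no mitochondrial limit, and under 5% the Ereg-high stromal (1.01), mesothelial-like (1.00), macrophage-like (1.02) and proliferating plasma cell-like (1.01) ratios turned too. Each ratio as first given has an interval off 1, which covers counting error only, and the nuclear members were below 1 in all of these types. The difference between types was not tested, as there was 1 library per diet, and the mitochondrial share is also the measure by which cells were filtered.

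Ndufa4l2 differed in direction between endothelial-like cells and 3 other types. It was lower in HFD proliferating Wt1+ (ratio 0.0544), Ereg-high stromal (0.0746) and mesothelial-like cells (0.226) and higher in HFD endothelial-like cells (4.31, from 17 and 49 UMIs, under the minimum of 100 used for comparisons), where all 10 mural markers were higher too. This difference between types was not tested either.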

How the results depend on the processing

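In all 13 alternatives were computed, of which the minimums of UMIs per gene bear on the counts of pairs alone and the gated types on counts and ranges alone. Cells added back without the mitochondrial limit, or with doublets kept, were assigned to the nearest cluster by markers. Some left fewer types with 100 cells in each library, 7 under 5% mitochondrial UMIs and 7 when cells were gated by markers in place of clusters, and 9 at a minimum of 2000 UMIs. No paired analysis was possible because each diet had 1 library. All 91 alternative values of nuclear sums between diets were below 1. Of 182 alternative ratios of sums 9 were on the other side of 1, and of 182 alternative ratios of named genes 4 were. The nuclear sum was lower, with its interval below 1, in 7 of the 7 types under 5% mitochondrial UMIs and in 7 of the 7 gated types, and in 8 of 9 when cells were thinned to 2000 UMIs.

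The limit of 5% mitochondrial UMIs bounds the mitochondrial share itself, so the folds under it say nothing about the spread over types. In LFD cells the fold of 2.35 between the highest and lowest type became 2.37 without the limit, 1.43 under 5%, 2.30 with doublets kept, 2.06 in gated types, 2.46 outside the mitochondrial members, 1.70 outside immunoglobulin and mitochondrial UMIs, 2.26 as a mean over cells and 2.27 after thinning. In HFD cells 2.63 became 2.67, 1.49, 2.53, 2.34, 2.78, 1.78 and 2.56 under the first 7 of these. The nuclear fold of 1.38 in LFD became 1.31 under 5%, 1.22 in gated types, 1.41 outside the mitochondrial members, 1.52 outside immunoglobulin as well and 1.32 at a minimum of 2000 UMIs, and that of 1.54 in HFD became 1.52 under 5%, 1.52 with doublets kept, 1.29 in gated types, 1.58, 1.69 and, as a mean over cells, 1.53.

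The number of types with the mitochondrial sum higher in HFD, 3 of 11, was 5 without the limit, 6 outside immunoglobulin, 1 of 9 at a minimum of 2000 UMIs and 1 of 9 after thinning, where T cell-like and ILC2-like cells had under 100 cells in a library and dropped out (their thinned shares were still higher in HFD), and the number lower, 7, was 2 of 7 under 5% and 4 of 7 in gated types. Single mitochondrial sums crossed 1 under 5% in Ereg-high stromal (1.01), mesothelial-like (1.00), macrophage-like (1.02) and proliferating plasma cell-like cells (1.01), without the limit in mesothelial-like cells (1.01), outside immunoglobulin in plasma cell-like (1.09) and proliferating plasma cell-like cells (1.04), and with scaling to the median gene in the same types (1.06 and 1.00). The cause was not tested, except that a limit of 5% leaves out cells by the measure itself.

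The 5 pairs of a nuclear member and a type that were 1.5-fold higher became 3 under 5%, 9 with genes of at least 50 UMIs, 3 with at least 500 and 15 with at least 1 UMI in each library. The 49 lower pairs of 913 became 27 of 600 in gated types, 23 of 784 at a minimum of 2000 UMIs, which leaves out the 11 T cell-like and 14 ILC2-like pairs, 14 of 712 with genes of at least 500 UMIs and 83 of 1016 with at least 1 UMI in each library. All genes were lower in 4.53%, 4.64%, 3.05% and 14.4% of pairs under the same 4 settings, against 4.50%, 2.93%, 1.97% and 8.17% of member pairs. The lower share of members was thus below that of all genes under all 4, though barely in gated types. Of the named genes, Sdhd turned to 0.982 in endothelial-like cells after thinning and to 0.891 in macrophage-like cells under 5%, and after thinning Ndufaf2 in plasma cell-like cells turned to 1.69 and Cox4i2 in proliferating plasma cell-like cells to 0.752, from few UMIs. The T cell-like and ILC2-like sums held the fewest UMIs of the compared types, and the part of depth in these changes was not tested.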

Other observations

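Types with under 100 cells in a library were left out of the comparison of diets. Neutrophil-like cells (176 LFD and 74 HFD cells) had the lowest mitochondrial share of any named type, 2.20% and 1.32% of UMIs, at median depths of 1264 and 1021.5 UMIs. Dendritic cell-like cells (113 and 82) had 4.64% and 4.21%. Of the cells assigned to a cluster without a name (57 and 90 kept), 67.1% in LFD and 63.4% in HFD were over the mitochondrial limit. Those over it were assigned by markers alone, so this share depends on that call. Of cells assigned to the Ereg-high stromal type it was 16.1% and 19.4%, the highest among the compared types. Sdhd was also higher in HFD proliferating B cell-like cells, with 62.2 CPM in LFD and 120.2 in HFD (95 and 121 UMIs), a type whose 97 HFD cells fell just short of the comparison.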
